A study of Mus musculus with 6 samples.

Results

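The genes described here are the kinases of the mitogen-activated protein (MAP) kinase cascade, the proteins named after MAP kinases, and the dual-specificity phosphatases. They are the 58 of 11489 genes in the deposited table whose symbol begins with Map2k, Map3k or Map4k and a digit, with Mapk, or with Dusp and a digit. RNA was sequenced from mouse bone marrow cells sorted as F4/80+ Epor-eGFP+ (3 libraries) and F4/80+ Epor-eGFP- (3 libraries). F4/80 is a marker on the surface of macrophages, eGFP reports on the erythropoietin receptor gene Epor, and the labels give both groups as bone marrow derived macrophages of the erythroblastic island, the macrophages on which erythroblasts mature. Both groups were sorted as F4/80+. The sources used here do not give strain, age, sex, the reporter construct or whether animals were pooled. Whether libraries of a group stem from different mice is not stated, so the p-values rest on a spread that may be technical. Of 78 protein-coding mouse RefSeq symbols that match the pattern, 20 are not members; Map3k20 is in the table under its older symbol Zak and is counted with the other pathway genes below, and the rest are not analysed here. The members were chosen by symbol, and through the table itself also on their level, since it holds only genes that reach 1 FPKM in some library; no difference between the groups entered the pattern. The set and this comparison were proposed with results of these data known, so the counts and adjusted p below are a description of the members.

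In the cascade, a MAP4K or a small GTPase activates a MAP3K, which phosphorylates a MAP2K, which in turn phosphorylates a MAP kinase on a threonine and a tyrosine. The extracellular signal-regulated kinases (ERK) answer mainly to growth factors, and the p38 and JNK kinases to stress and to microbial products. In macrophages these branches control cytokine synthesis, and Dusp phosphatases that remove both phosphates end them, many of these being induced by the same signals.

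Levels are in FPKM, which divides a gene's fragments by its length and by the library's fragments, and libraries are called by the number in their column name. The read depth is unknown, total FPKM ran from 467176 to 519650 and the library medians from 11.7 to 11.8 FPKM. The groups were compared with limma on log2(FPKM + 1) over the 10964 genes whose mean reached 1 FPKM, and a call is a p below 0.05 after Benjamini-Hochberg adjustment. Differences are Epor-eGFP+ minus Epor-eGFP- on this scale, on which a change of a gene near 1 FPKM comes out smaller than it is. An exact permutation test of 3 against 3 libraries cannot go below 0.1. Epor had 6.67, 3.43 and 7.78 FPKM in Epor-eGFP+ libraries 0, 1 and 2, against 0.375, 0.414 and 0.217 FPKM in Epor-eGFP- libraries 0, 1 and 2. Adgre1, the F4/80 gene, averaged 167 ± 65.5 FPKM in Epor-eGFP+ cells and 136 ± 3.85 FPKM in Epor-eGFP- cells. Marker genes of several cell types moved with the groups. In the counts, a gene that fell or rose is one called lower or higher in Epor-eGFP+ cells. Of all genes tested, 26.3% fell and 22.7% rose. The summed level of 12 island macrophage markers was 2379.8 to 8896 FPKM across Epor-eGFP+ libraries, against 189.9 to 252 FPKM across Epor-eGFP- libraries (12 of 12 rose), and 11 erythroid genes summed to 318 to 481 FPKM across Epor-eGFP+ libraries, against 32.5 to 53.1 FPKM across Epor-eGFP- libraries (10 of 11 rose). Late neutrophil genes summed to 5111 to 6041 FPKM across Epor-eGFP+ libraries, against 12598 to 19499 FPKM across Epor-eGFP- libraries (9 of 10 fell), monocyte genes to 1309 to 1627 FPKM across Epor-eGFP+ libraries, against 3125 to 4455 FPKM across Epor-eGFP- libraries (8 of 8 fell), and azurophil granule genes of promyelocytes to 7532 to 9353 FPKM across Epor-eGFP+ libraries, against 1428 to 2673 FPKM across Epor-eGFP- libraries (4 of 4 rose). Of the other lists, T and NK cell genes summed to 203 to 258 FPKM across Epor-eGFP+ libraries, against 57.3 to 98.2 FPKM across Epor-eGFP- libraries (Nkg7, which made up most of the sum, rose and the other 3 tested fell), osteoclast genes to 124 to 214 FPKM across Epor-eGFP+ libraries, against 13.3 to 23.8 FPKM across Epor-eGFP- libraries (3 of 3 tested rose; Dcstamp was listed at 0 in Epor-eGFP- libraries 0 and 2) and eosinophil genes to 3281 to 13292 FPKM across Epor-eGFP+ libraries, against 9142 to 14404 FPKM across Epor-eGFP- libraries (2 of 8 rose, 4 fell; the granule gene Prg2 was listed at 0 in Epor-eGFP+ library 0, the lowest sum). B lineage and platelet lists had 2 genes each that rose and none that fell, of 8 and 6. The part of these cell types in the differences below was not tested, and in such bulk samples fewer cells of a type and less RNA per cell cannot be told apart.

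Most of the cascade was lower in Epor-eGFP+ cells. Of the 58 members, 30 fell, 3 rose and 25 had no call, where 26.3% of all genes tested fell and 22.7% rose. The median log2 difference was −0.40 over the members and −0.012 over all genes tested. The groups did not overlap in 38 members, 34 of them lower and 4 higher in Epor-eGFP+ cells, where 60.4% of all genes did not overlap, 31.9% lower and 28.4% higher. None of the kinases rose, and the 3 members that rose are phosphatases outside the MAP kinase phosphatase subfamily. A fall by at least 1 on the log2 scale was found in 6 called members, Dusp5, Map4k4, Dusp22, Map3k6, Map3k5 and Map3k9, where 4.39% of all genes fell that far. None rose by 1 or more, where 4.92% of all genes did. Over all genes 2489 rose and 2883 fell, a split that turned to 3053 and 2082 once the libraries were rescaled to one total, which left 28 members lower and 4 higher. Without Epor-eGFP+ library 0, 26 members were lower and 1, Dusp19, was higher, where 2060 of 10933 genes tested were lower and 1611 higher. Without Epor-eGFP- library 0 the members' counts were 26 and 1, where 2112 of 10991 genes tested were lower and 1751 higher. With a replicate block, which compares libraries of the same column number, 33 members were lower and 4 higher, where 30.4% and 28% of all genes were.

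**Figure D1:**
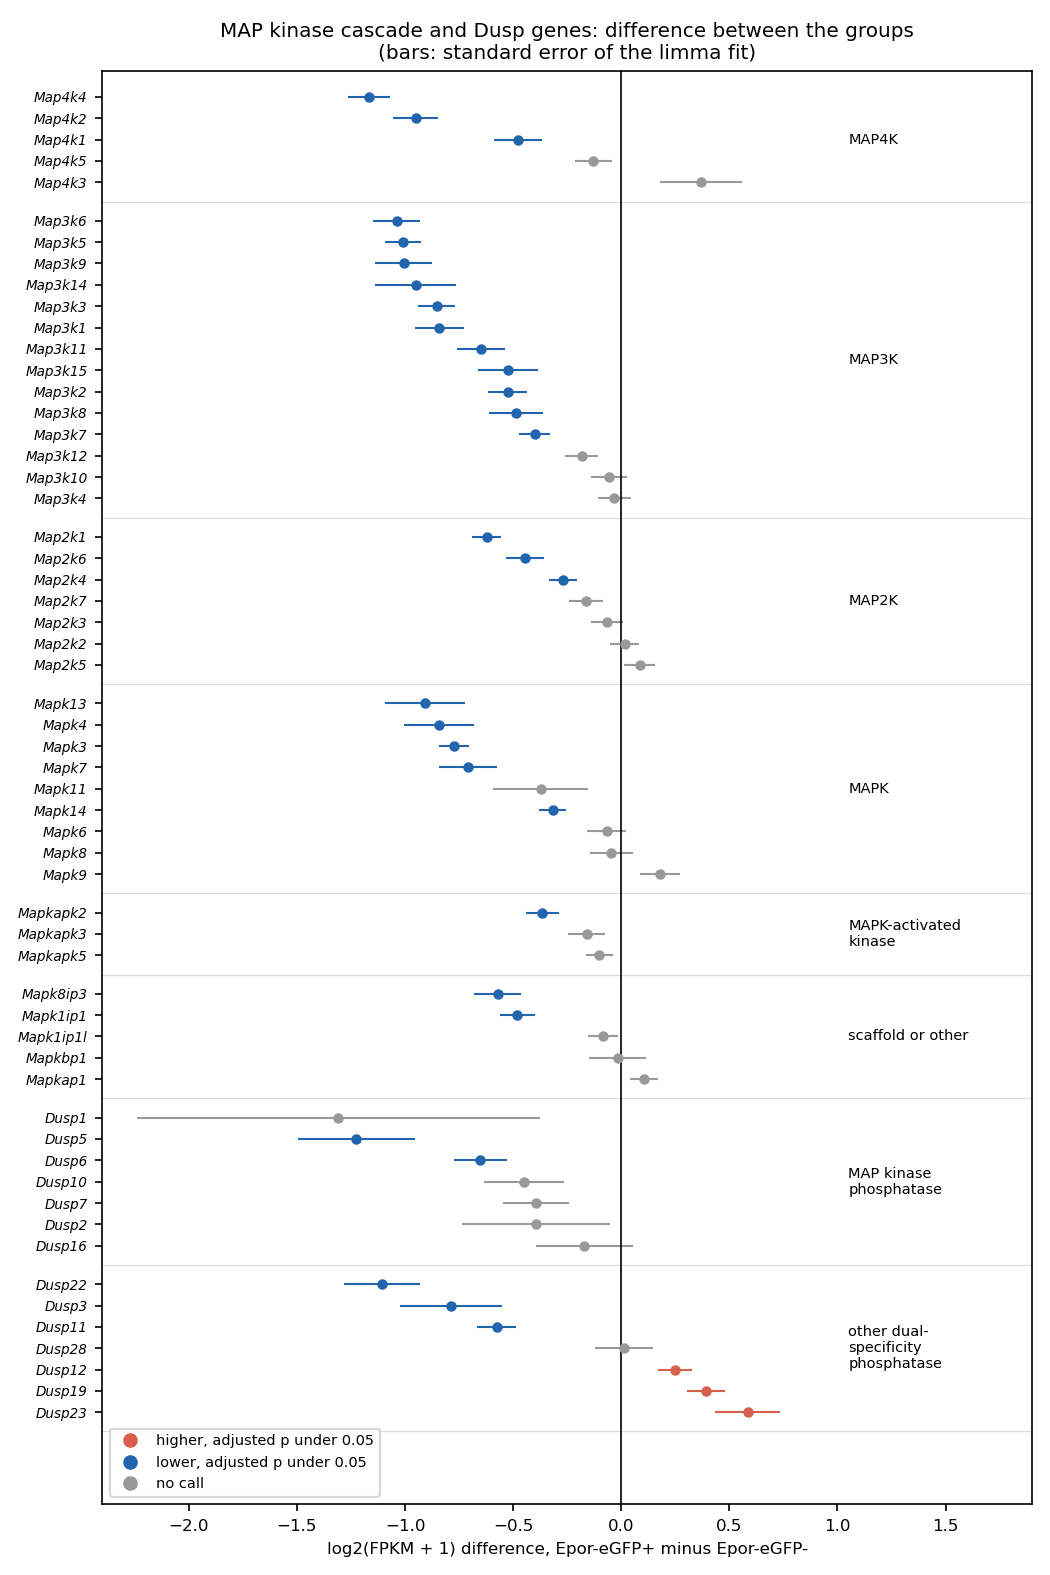
Log2(FPKM + 1) difference, Epor-eGFP+ minus Epor-eGFP-, of 57 of the 58 members by tier, with the standard error of the limma fit as bars. Points left of 0 are lower in Epor-eGFP+ cells; the 30 members that fell are blue, the 3 that rose are red, and the bar of Dusp1 is the widest.

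The members' levels, which FPKM gives per length, ran from 0.714 FPKM for Mapk11 to 250.2 FPKM for Dusp1 over single libraries, both in Epor-eGFP- cells. The mean over all libraries was above 50 FPKM in 8 members, between 10 and 50 FPKM in 27 and below 10 FPKM in 23. Mapkapk2, Mapk3, Dusp1, Mapk14 and Mapkapk3 had the highest means. Only Mapk4 and Mapk11 were below 1 FPKM in any library, and none was listed at 0. Replicates of the members were close, with a median coefficient of variation of 7.90% in Epor-eGFP+ cells and 7.56% in Epor-eGFP- cells, against 9.44% and 9.09% over all genes tested. The medians were highest in the MAP kinase phosphatases among the tiers, at 19.2% in Epor-eGFP+ cells and 38.2% in Epor-eGFP- cells.

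The MAP4 kinases, relatives of the yeast kinase Ste20 that start the cascade towards JNK, fell in 3 of 5 members, where 26.3% of all genes tested fell. Their summed level was 77.9 ± 3.99 FPKM in Epor-eGFP+ cells and 135 ± 10.8 FPKM in Epor-eGFP- cells (SD, n = 3 each). Map4k4, which acts on JNK downstream of tumour necrosis factor, had 19.5, 19.3 and 18.8 FPKM in Epor-eGFP+ libraries 0, 1 and 2, against 43.0, 39.8 and 50.8 FPKM in Epor-eGFP- libraries 0, 1 and 2. The Epor-eGFP+ libraries lay within 1 FPKM of each other and far below every Epor-eGFP- library (log2 difference −1.17, SE 0.097, adjusted p = 0.000459). Map4k2, the germinal centre kinase, had 20.7, 22.0 and 19.3 FPKM in Epor-eGFP+ cells, against 47.0, 38.6 and 37.6 FPKM in Epor-eGFP- cells, again without overlap (log2 difference −0.95, SE 0.10, adjusted p = 0.000868). Map4k1, a kinase of blood cells that restrains antigen receptor signalling, had the highest mean of the tier over all 6 libraries, although Map4k4 was higher in every Epor-eGFP- library. It had 29.5, 33.9 and 27.3 FPKM in Epor-eGFP+ cells, against 42.0, 38.1 and 47.4 FPKM in Epor-eGFP- cells (log2 difference −0.48, SE 0.11, adjusted p = 0.0124). Its share of the tier's sum was 36.8% to 41.3% in Epor-eGFP+ libraries and 30.1% to 33.1% in Epor-eGFP- libraries, while that of Map4k4 was 23.5% to 25.3% in Epor-eGFP+ libraries and 30.8% to 35.5% in Epor-eGFP- libraries. Map4k5 averaged 4.11 ± 0.236 FPKM in Epor-eGFP+ cells and 4.59 ± 0.275 FPKM in Epor-eGFP- cells and had no call (adjusted p = 0.244), although its groups did not overlap. Map4k3 averaged 3.74 ± 1.16 FPKM in Epor-eGFP+ cells and 2.62 ± 0.427 FPKM in Epor-eGFP- cells, the only positive difference in the tier (log2 difference 0.37, SE 0.19, adjusted p = 0.15). It passed with the replicate block (adjusted p = 0.0327) and without Epor-eGFP+ library 1 (adjusted p = 0.0371), its lowest library in that group.

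Of the 14 MAP3 kinases 11 fell, none rose and 3 had no call, where 26.3% of all genes tested fell. All 14 differences were negative, as were 5599 of the 10964 over all genes tested. Their summed level was 151 ± 3.48 FPKM in Epor-eGFP+ cells and 249 ± 23.1 FPKM in Epor-eGFP- cells (SD, n = 3 each). The relatives named ASK for apoptosis signal, which answer to oxidative stress and lead to p38 and JNK, fell together. Map3k5 (ASK1) had 9.41, 10.4 and 9.84 FPKM in Epor-eGFP+ libraries 0, 1 and 2, against 20.9, 19.1 and 22.7 FPKM in Epor-eGFP- libraries 0, 1 and 2, so that no Epor-eGFP+ library came near an Epor-eGFP- library (log2 difference −1.01, SE 0.085, adjusted p = 0.000459). Map3k6 (ASK2), which binds ASK1, had 1.75, 1.89 and 1.91 FPKM in Epor-eGFP+ cells, against 4.15, 5.11 and 5.38 FPKM in Epor-eGFP- cells (log2 difference −1.04, SE 0.11, adjusted p = 0.000769). Map3k15 (ASK3) was lower by a smaller amount, at 2.67 ± 0.613 FPKM in Epor-eGFP+ cells and 4.26 ± 0.469 FPKM in Epor-eGFP- cells (log2 difference −0.53, SE 0.14, adjusted p = 0.0193). Part of the exons of Map3k15 (13.9%) lie on the opposite strand to exons of Pdha1, a gene with values in the same table, and since the sources used here do not say that strand was counted the reads of the pair may be mixed. The call of Map3k15 was lost without library 0 of either group (adjusted p = 0.0714 without that of Epor-eGFP+, 0.0718 without that of Epor-eGFP-) and without both libraries numbered 2 (adjusted p = 0.0661).

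Mixed-lineage kinases, which activate JNK, split. Map3k9 (MLK1) had 2.94, 3.46 and 2.64 FPKM in Epor-eGFP+ cells, against 8.11, 7.26 and 5.90 FPKM in Epor-eGFP- cells, with a wide gap between the groups (log2 difference −1.01, SE 0.13, adjusted p = 0.00148). Map3k11 (MLK3), at several times the level of Map3k9, averaged 34.2 ± 2.59 FPKM in Epor-eGFP+ cells and 54.5 ± 7.49 FPKM in Epor-eGFP- cells (log2 difference −0.65, SE 0.11, adjusted p = 0.00382). Map3k10 (MLK2) averaged 3.93 ± 0.169 FPKM in Epor-eGFP+ cells and 4.12 ± 0.229 FPKM in Epor-eGFP- cells and overlapped between groups (adjusted p = 0.604). Map3k12 (DLK) averaged 11.2 ± 0.374 FPKM in Epor-eGFP+ cells and 12.9 ± 0.978 FPKM in Epor-eGFP- cells, with no call either (log2 difference −0.18, adjusted p = 0.0913). Every Epor-eGFP+ library of Map3k12 was nevertheless below every Epor-eGFP- library. Exons on the opposite strand face 15.7% of the exon bases of Map3k10 (Ttc9b) and 27.5% of those of Map3k12 (Pcbp2), so both values are uncertain. Of these, Pcbp2 has values in the same table and Ttc9b has none. Map3k3 (MEKK3), a kinase upstream of the MEK5 and ERK5 branch, had the highest mean of the tier over all 6 libraries, with Map3k11 close to it and higher in every Epor-eGFP+ library. It had 30.2, 30.1 and 33.6 FPKM in Epor-eGFP+ libraries 0, 1 and 2, against 55.4, 54.3 and 62.7 FPKM in Epor-eGFP- libraries 0, 1 and 2. The lowest Epor-eGFP- library thus stood well above the highest Epor-eGFP+ library (log2 difference −0.85, SE 0.085, adjusted p = 0.000689). Its relative Map3k2 (MEKK2) fell at a lower level (4.02 ± 0.259 FPKM in Epor-eGFP+ cells and 6.23 ± 0.469 FPKM in Epor-eGFP- cells; log2 difference −0.53, adjusted p = 0.00362), as did Map3k1 (MEKK1), at 12.6 ± 0.564 FPKM in Epor-eGFP+ cells and 23.5 ± 3.47 FPKM in Epor-eGFP- cells (log2 difference −0.84, SE 0.11, adjusted p = 0.00162). Map3k4 (MEKK4) averaged 8.73 ± 0.504 FPKM in Epor-eGFP+ cells and 8.95 ± 0.436 FPKM in Epor-eGFP- cells, with no call (adjusted p = 0.749).

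Map3k14 (NIK), the kinase of the alternative NF-kB pathway, had 8.63, 8.80 and 9.13 FPKM in Epor-eGFP+ libraries 0, 1 and 2, against 18.1, 13.5 and 24.1 FPKM in Epor-eGFP- libraries 0, 1 and 2. Its Epor-eGFP- libraries differed among themselves by more than its Epor-eGFP+ libraries, without overlap (log2 difference −0.95, SE 0.19, adjusted p = 0.0061). Map3k7 (TAK1), which Toll-like and interleukin receptors use to reach p38, JNK and NF-kB, had 13.7, 15.0 and 13.2 FPKM in Epor-eGFP+ cells, against 18.2, 18.8 and 19.1 FPKM in Epor-eGFP- cells. That fall was among the smaller ones that passed (log2 difference −0.40, SE 0.073, adjusted p = 0.00484). Map3k8 (TPL2), which links Toll-like receptors to ERK in macrophages, averaged 4.74 ± 0.878 FPKM in Epor-eGFP+ cells and 6.97 ± 0.451 FPKM in Epor-eGFP- cells (log2 difference −0.49, SE 0.13, adjusted p = 0.0178). It lost its call in 5 alternatives, the removal of library 0 from either group (adjusted p = 0.0537 without that of Epor-eGFP+ and 0.0659 without that of Epor-eGFP-), of Epor-eGFP- library 2 (0.0506) or of both libraries numbered 2 (0.0575), and rescaling to a common total (0.0519).

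Of the 7 MAP2 kinases 3 fell, none rose and 4 had no call, where 26.3% of all genes fell, and the summed level of the tier was 194 ± 3.58 FPKM in Epor-eGFP+ cells and 225 ± 2.22 FPKM in Epor-eGFP- cells (SD, n = 3 each). In each of the pairs that share a target, a single partner was called lower, and the difference between partners was not tested. Map2k1 (MEK1), which phosphorylates the ERK kinases, had 41.5, 42.0 and 41.0 FPKM in Epor-eGFP+ libraries 0, 1 and 2, against 62.9, 61.9 and 68.6 FPKM in Epor-eGFP- libraries 0, 1 and 2. The Epor-eGFP+ libraries were almost identical and all lower (log2 difference −0.62, SE 0.068, adjusted p = 0.000868). Map2k2 (MEK2), with the same targets, averaged 51.6 ± 2.63 FPKM in Epor-eGFP+ cells and 51.0 ± 1.16 FPKM in Epor-eGFP- cells, with a log2 difference of 0.016 (SE 0.067, adjusted p = 0.862). Map2k6 (MKK6), a p38 kinase, had 4.47, 5.07 and 4.22 FPKM in Epor-eGFP+ cells, against 6.69, 6.79 and 6.28 FPKM in Epor-eGFP- cells, without overlap (log2 difference −0.44, SE 0.088, adjusted p = 0.00652). Map2k3 (MKK3), its partner at a much higher level, averaged 43.6 ± 1.64 FPKM in Epor-eGFP+ cells and 45.7 ± 2.99 FPKM in Epor-eGFP- cells (log2 difference −0.065, adjusted p = 0.492). Map2k4 (MKK4), which acts on JNK and p38, had 16.3, 17.8 and 16.6 FPKM in Epor-eGFP+ cells, against 20.9, 20.4 and 20.4 FPKM in Epor-eGFP- cells (log2 difference −0.27, SE 0.066, adjusted p = 0.0146). The fall of Map2k4 is small and its call was lost under rescaling to a common total (log2 difference −0.17, adjusted p = 0.113) or a common upper quartile (0.0524), without library 0 of Epor-eGFP+ (0.0686) or of Epor-eGFP- (0.0596), and without both libraries numbered 2 (0.0518). Map2k7 (MKK7), specific to JNK, averaged 20.3 ± 1.53 FPKM in Epor-eGFP+ cells and 22.8 ± 0.994 FPKM in Epor-eGFP- cells (adjusted p = 0.13, and 0.0518 with the replicate block). Every Epor-eGFP+ library of Map2k7 was below every Epor-eGFP- library, so it differs from Map2k4 only in the call. An annotated gene of the same strand shares 35.8% of the exon bases of Map2k7, so its value is uncertain. Map2k5 (MEK5) averaged 15.2 ± 0.824 FPKM in Epor-eGFP+ cells and 14.2 ± 0.465 FPKM in Epor-eGFP- cells (adjusted p = 0.355).

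Of the 10 MAP kinases 5 fell, none rose and 5 had no call, where 26.3% of all genes fell. The tier summed to 301 ± 6.86 FPKM in Epor-eGFP+ cells and 416 ± 15.4 FPKM in Epor-eGFP- cells (SD, n = 3 each). Mapk3 (ERK1) had the highest level of the tier, with 102, 99.8 and 97.3 FPKM in Epor-eGFP+ libraries 0, 1 and 2, against 181, 163 and 169.6 FPKM in Epor-eGFP- libraries 0, 1 and 2. Every Epor-eGFP+ library was far below the lowest Epor-eGFP- library (log2 difference −0.77, SE 0.070, adjusted p = 0.000541). Mapk3 lies on chromosome 7, 126759626 to 126765816 (RefSeq, GRCm38).

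Among the p38 kinases, which stress and microbial products activate, Mapk14 (p38 alpha) had 88.6, 91.7 and 90.9 FPKM in Epor-eGFP+ libraries 0, 1 and 2, against 114, 115 and 109.8 FPKM in Epor-eGFP- libraries 0, 1 and 2. The fall was modest and the spread within each group small (log2 difference −0.32, SE 0.062, adjusted p = 0.00599). Mapk13 (p38 delta) had 9.50, 9.92 and 7.94 FPKM in Epor-eGFP+ cells, against 23.6, 17.6 and 13.8 FPKM in Epor-eGFP- cells, a larger relative fall with a wide spread in Epor-eGFP- cells (log2 difference −0.91, SE 0.19, adjusted p = 0.00724). Mapk11 (p38 beta) was near 1 FPKM, at 0.851 ± 0.219 FPKM in Epor-eGFP+ cells and 1.45 ± 0.639 FPKM in Epor-eGFP- cells, and had no call (log2 difference −0.37, SE 0.22, adjusted p = 0.196). It passed without Epor-eGFP- library 1, where it was lowest (adjusted p = 0.0187), and under quantile normalization (adjusted p = 0.0411). The JNK kinases had no call. Mapk8 (JNK1) had 3.36, 3.70 and 2.91 FPKM in Epor-eGFP+ cells, against 3.31, 3.45 and 3.60 FPKM in Epor-eGFP- cells (log2 difference −0.046, SE 0.099, adjusted p = 0.719). Mapk9 (JNK2) averaged 13.2 ± 1.55 FPKM in Epor-eGFP+ cells and 11.5 ± 0.236 FPKM in Epor-eGFP- cells (log2 difference 0.18, SE 0.094, adjusted p = 0.153), and it passed as higher after rescaling to a common total (log2 difference 0.27, adjusted p = 0.0384) and without Epor-eGFP+ library 1 (log2 difference 0.26, adjusted p = 0.0447).

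Mapk7 (ERK5), the target of MEK5, fell to 10.2, 9.18 and 11.9 FPKM in Epor-eGFP+ libraries 0, 1 and 2, against 16.9, 15.5 and 20.8 FPKM in Epor-eGFP- libraries 0, 1 and 2. The groups did not overlap and in both of them library 2 was highest and library 1 lowest (log2 difference −0.71, SE 0.13, adjusted p = 0.00535). With Map3k3 and Map3k2, members upstream and downstream of MEK5 thus fell while the MEK5 gene Map2k5 had no call. Of the atypical MAP kinases, Mapk4 (ERK4) had 1.01, 0.733 and 0.756 FPKM in Epor-eGFP+ cells, against 3.08, 2.095 and 1.79 FPKM in Epor-eGFP- cells (log2 difference −0.84, SE 0.16, adjusted p = 0.00592), levels at which the result depends on the pseudocount, with a log2 difference of −1.35 on log2(FPKM + 0.1). Mapk6 (ERK3) averaged 19.4 ± 1.60 FPKM in Epor-eGFP+ cells and 20.4 ± 1.51 FPKM in Epor-eGFP- cells and had no call (adjusted p = 0.563).

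**Figure D2:**
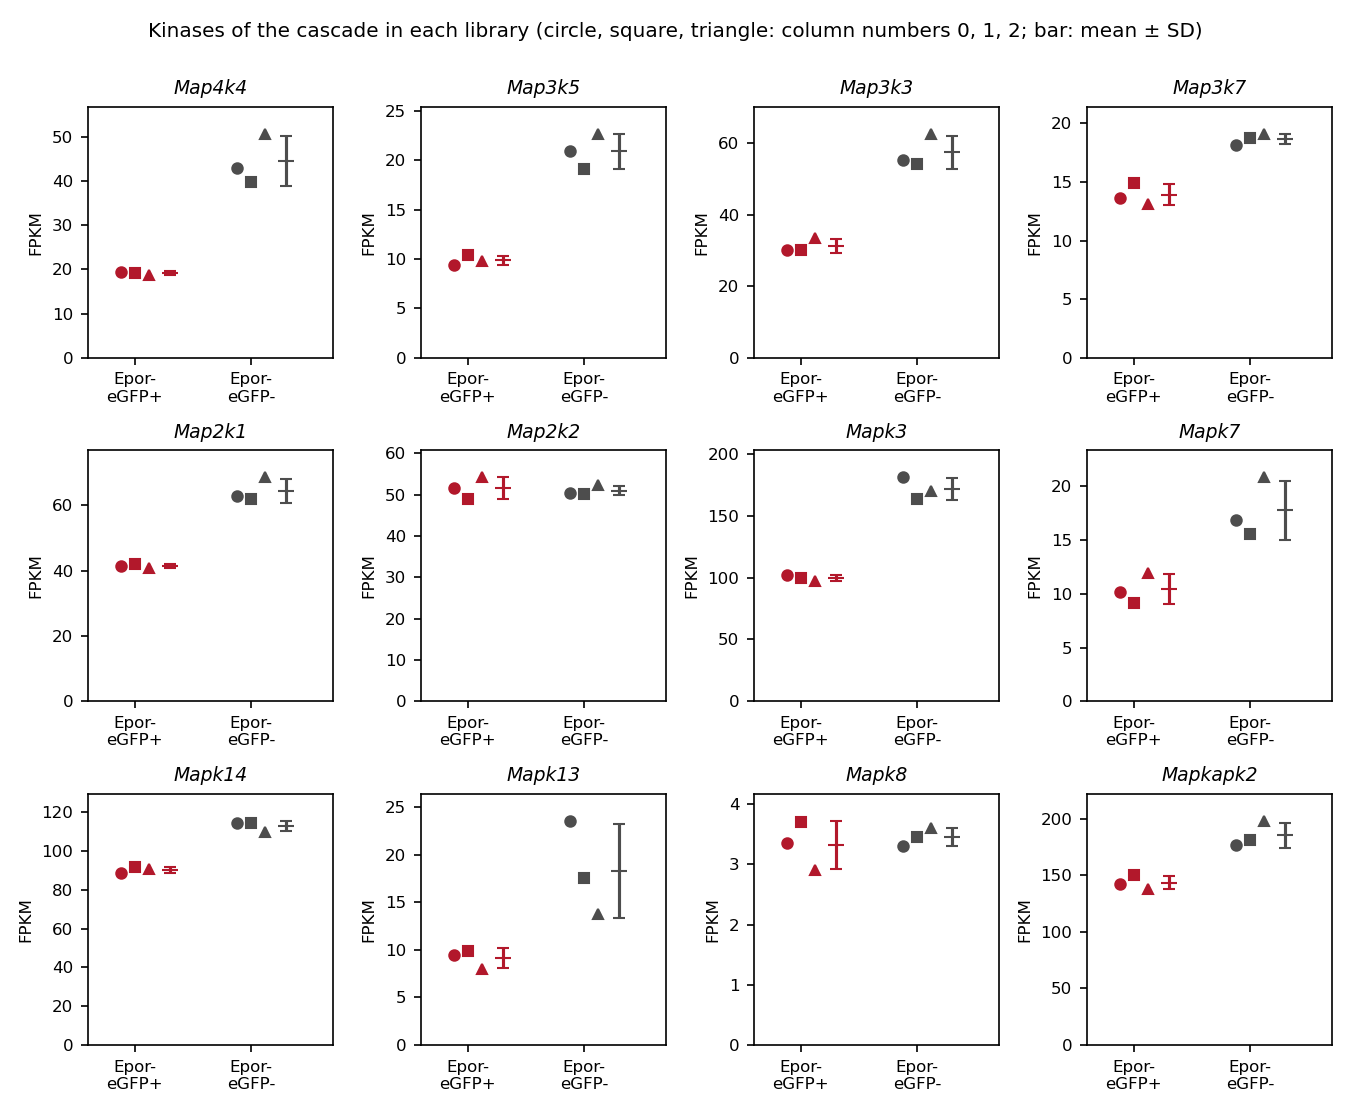
FPKM of 12 kinases in each library, Epor-eGFP+ left and Epor-eGFP- right in each panel, with the mean and SD beside the points; circles, squares and triangles are column numbers 0, 1 and 2, and each y axis starts at 0. The groups stand apart in Mapk3, Mapk7 and Map2k1 and overlap in Map2k2 and Mapk8.

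The kinases that MAP kinases activate were abundant. Mapkapk2 (MK2), the p38 target that stabilises cytokine messenger RNAs, had the highest mean of all members, with 142, 149.98 and 138 FPKM in Epor-eGFP+ libraries 0, 1 and 2, against 177, 181 and 198 FPKM in Epor-eGFP- libraries 0, 1 and 2. Its groups did not overlap (log2 difference −0.36, SE 0.076, adjusted p = 0.00795), and its call was lost under quantile normalization (log2 difference −0.19, adjusted p = 0.102). Mapkapk3 (MK3) averaged 74.95 ± 6.97 FPKM in Epor-eGFP+ cells and 83.7 ± 3.84 FPKM in Epor-eGFP- cells (adjusted p = 0.168). Mapkapk5 averaged 15.1 ± 0.172 FPKM in Epor-eGFP+ cells and 16.3 ± 0.0536 FPKM in Epor-eGFP- cells (adjusted p = 0.208), without overlap between the groups. Of its exon bases, 80.8% are shared with Adam1a on the same strand, a gene without values in the table, so the value of Mapkapk5 is uncertain. So 1 of these 3 kinases fell, where 26.3% of all genes did.

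Of the 5 scaffolds and other proteins named after MAP kinases 2 fell, none rose and 3 had no call, where 26.3% of all genes fell and 22.7% rose. Mapk8ip3 (JIP3), a scaffold of the JNK branch that also binds motor proteins, had 7.42, 7.60 and 6.29 FPKM in Epor-eGFP+ cells, against 11.8, 9.68 and 11.7 FPKM in Epor-eGFP- cells (log2 difference −0.57, SE 0.11, adjusted p = 0.00538). Mapk1ip1 had 4.33, 3.93 and 4.14 FPKM in Epor-eGFP+ cells, against 6.30, 5.80 and 6.37 FPKM in Epor-eGFP- cells (log2 difference −0.48, SE 0.080, adjusted p = 0.00349). Its relative by name Mapk1ip1l, the highest of the 5, had 24.6, 27.3 and 24.4 FPKM in Epor-eGFP+ cells, against 26.7, 27.1 and 27.2 FPKM in Epor-eGFP- cells, and its groups overlapped (log2 difference −0.086, SE 0.070, adjusted p = 0.341). A pseudogene on the opposite strand covers 13.9% of the exon bases of Mapk1ip1l, so its value is uncertain. Mapkbp1, a JNK-binding protein, averaged 2.33 ± 0.515 FPKM in Epor-eGFP+ cells and 2.34 ± 0.1495 FPKM in Epor-eGFP- cells (adjusted p = 0.932). Mapkap1, which encodes Sin1, a subunit of the kinase complex mTORC2 and no part of the cascade, averaged 20.3 ± 0.962 FPKM in Epor-eGFP+ cells and 18.8 ± 0.237 FPKM in Epor-eGFP- cells (adjusted p = 0.226). Its groups did not overlap, with every Epor-eGFP+ library higher.

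The MAP kinase phosphatases, the subfamily that docks on MAP kinases and removes their activating phosphates, include early response genes that the same signals induce. The promoters of Dusp1, Dusp5 and Dusp6 are shown because these genes carry the results that follow. Dusp1 had the largest coefficient of variation of all members, and Dusp5 and Dusp6 are the called genes of the tier. Each sequence is the 250 bases before the RefSeq start of the gene (GRCm38.p6), 5′ to 3′ on the strand of the gene. The capitals mark matches to the CRE (TGACGTCA) and its core TGACG, which the full site contains, to the E-box CACGTG, to the CArG box of serum response factor and to GAGGAAGT, a PU.1 site, searched on both strands.
Dusp1, chr17:26508473-26508722, minus strand: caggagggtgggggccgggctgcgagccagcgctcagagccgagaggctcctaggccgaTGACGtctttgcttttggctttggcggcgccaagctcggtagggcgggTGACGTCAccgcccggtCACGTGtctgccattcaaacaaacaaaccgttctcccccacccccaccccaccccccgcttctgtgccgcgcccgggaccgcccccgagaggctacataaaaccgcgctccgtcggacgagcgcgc
Dusp5, chr19:53528895-53529144, plus strand: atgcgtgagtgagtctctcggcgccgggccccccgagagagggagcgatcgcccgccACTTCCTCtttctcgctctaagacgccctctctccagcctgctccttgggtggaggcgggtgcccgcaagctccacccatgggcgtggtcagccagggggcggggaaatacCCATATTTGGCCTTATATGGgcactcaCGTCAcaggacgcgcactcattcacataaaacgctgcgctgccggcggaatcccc
Dusp6, chr10:99262981-99263230, plus strand: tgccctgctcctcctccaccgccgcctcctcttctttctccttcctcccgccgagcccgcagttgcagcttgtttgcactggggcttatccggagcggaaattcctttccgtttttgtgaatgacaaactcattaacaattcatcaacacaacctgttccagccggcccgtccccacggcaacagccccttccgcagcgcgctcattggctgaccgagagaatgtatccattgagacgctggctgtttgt

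The window of Dusp1 holds a full CRE, which the factor CREB binds, a further CRE core and an E-box. The window of Dusp5 holds a pair of CArG boxes side by side, a CRE core and a PU.1 match, and the window of Dusp6 holds none of these letters. Of the 11251 promoter windows of this length of genes in the table, 2.58% hold the full CRE, 26.8% the CRE core, 8.43% the E-box, 1.18% a CArG box and 2.77% the PU.1 letters. Over all 32851 windows the shares are 1.55%, 17.8%, 6.02%, 1.47% and 2.44% in the same order. Windows were found for 49 of the 58 members. Among these Dusp1 is the only one with the full CRE, Dusp5 the only one with a CArG box, and Dusp5, Map3k3 and Mapkapk2 hold the PU.1 letters. A match describes the letters and is no evidence of binding.

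Of the 7 MAP kinase phosphatases, 2 fell, none rose and 5 had no call, where 26.3% of all genes fell. All 7 differences were negative, as were 5599 of the 10964 over all genes. With the replicate block 5 of the 7 fell, where 30.4% of all genes did. Dusp1 (MKP-1), which limits p38 and JNK in macrophages, had 83.5, 113 and 12.2 FPKM in Epor-eGFP+ libraries 0, 1 and 2, against 166, 250.2 and 45.1 FPKM in Epor-eGFP- libraries 0, 1 and 2. Library 1 was highest and library 2 lowest in both groups, with a coefficient of variation of 74.6% in Epor-eGFP+ cells and 67.0% in Epor-eGFP- cells, and the groups overlapped (log2 difference −1.31, SE 0.93, adjusted p = 0.278). Epor-eGFP+ was lower than Epor-eGFP- for every column number, with ratios of 0.503, 0.453 and 0.270 for numbers 0, 1 and 2. Dusp1 passed with the replicate block (adjusted p = 0.00379) and without both libraries numbered 2 (log2 difference −1.06, adjusted p = 0.0177). Its log2 difference ran from −2.02 to −0.34 over all alternatives, the smallest without Epor-eGFP+ library 2 and the largest without Epor-eGFP- library 2.

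Other immediate early genes, such as Fos and Junb, which also respond to the handling of cells, were listed beside Dusp1. Fos had 149, 203 and 43.4 FPKM in Epor-eGFP+ libraries 0, 1 and 2, against 353, 397 and 198 FPKM in Epor-eGFP- libraries 0, 1 and 2. Its order of libraries was that of Dusp1 in both groups (log2 difference −1.45, SE 0.57, adjusted p = 0.0705; adjusted p = 0.00705 with the block). Summed, 14 such genes reached 609.7, 748 and 298 FPKM in Epor-eGFP+ libraries 0, 1 and 2, against 1424, 1485 and 1080.1 FPKM in Epor-eGFP- libraries 0, 1 and 2. Of the 13 tested, 5 fell and none rose, where 26.3% of all genes tested fell and 22.7% rose. With the replicate block 8 fell and none rose, where 30.4% of all genes fell and 28% rose. In 5, namely Fos, Fosb, Junb, Ier2 and Egr1, the library order was that of Dusp1 in both groups, an order that 12.5% of all genes tested and 4 of 58 members had. The part of cell handling in the values of Dusp1 was not tested.

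The phosphatases of ERK differed less between libraries of a group. Dusp5, a nuclear phosphatase of ERK, had 4.81, 3.40 and 2.88 FPKM in Epor-eGFP+ libraries 0, 1 and 2, against 14.8, 9.25 and 6.82 FPKM in Epor-eGFP- libraries 0, 1 and 2. In both groups library 0 was highest and library 2 lowest, and the highest Epor-eGFP+ library was below the lowest Epor-eGFP- library (log2 difference −1.22, SE 0.27, adjusted p = 0.00973). Exons of an antisense gene cover 22.1% of the exon bases of Dusp5, and their reads cannot be told apart here. Dusp6 (MKP-3), its cytoplasmic counterpart, had 22.2, 25.4 and 21.1 FPKM in Epor-eGFP+ libraries 0, 1 and 2, against 35.5, 32.0 and 42.6 FPKM in Epor-eGFP- libraries 0, 1 and 2, without overlap (log2 difference −0.65, SE 0.12, adjusted p = 0.00523). Dusp7, the close relative of Dusp6, had 11.1, 11.0 and 14.6 FPKM in Epor-eGFP+ cells, against 15.0, 14.5 and 19.9 FPKM in Epor-eGFP- cells. Library 2 was highest in both groups, and the highest Epor-eGFP+ value lay just inside the range of Epor-eGFP- cells (log2 difference −0.39, SE 0.15, adjusted p = 0.0708). It passed with the replicate block (adjusted p = 0.00452), without Epor-eGFP+ library 2 (0.0266) and without both libraries numbered 2 (0.0161). Its ratios of Epor-eGFP+ to Epor-eGFP- were 0.742, 0.762 and 0.736 for numbers 0, 1 and 2.

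Dusp2 (PAC-1), a nuclear phosphatase of blood cells, averaged 13.5 ± 4.90 FPKM in Epor-eGFP+ cells and 18.2 ± 7.80 FPKM in Epor-eGFP- cells, with no call in either fit (adjusted p = 0.371, and 0.0952 with the block). Dusp10 (MKP-5), which prefers p38 and JNK, averaged 1.43 ± 0.253 FPKM in Epor-eGFP+ cells and 2.36 ± 0.739 FPKM in Epor-eGFP- cells (log2 difference −0.45, SE 0.19, adjusted p = 0.0827, adjusted p = 0.0432 with the block). It also passed without Epor-eGFP- library 1 (adjusted p = 0.0114) and under quantile normalization (adjusted p = 0.0338). Dusp16 (MKP-7), which acts on the same kinases, averaged 2.03 ± 0.391 FPKM in Epor-eGFP+ cells and 2.49 ± 0.953 FPKM in Epor-eGFP- cells (adjusted p = 0.555). The whole tier summed to 143, 171 and 63.0 FPKM in Epor-eGFP+ libraries 0, 1 and 2, against 264, 323 and 134 FPKM in Epor-eGFP- libraries 0, 1 and 2. Dusp1 held 19.3% to 66.3% of them in Epor-eGFP+ libraries and 33.8% to 77.5% in Epor-eGFP- libraries.

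**Figure D3:**
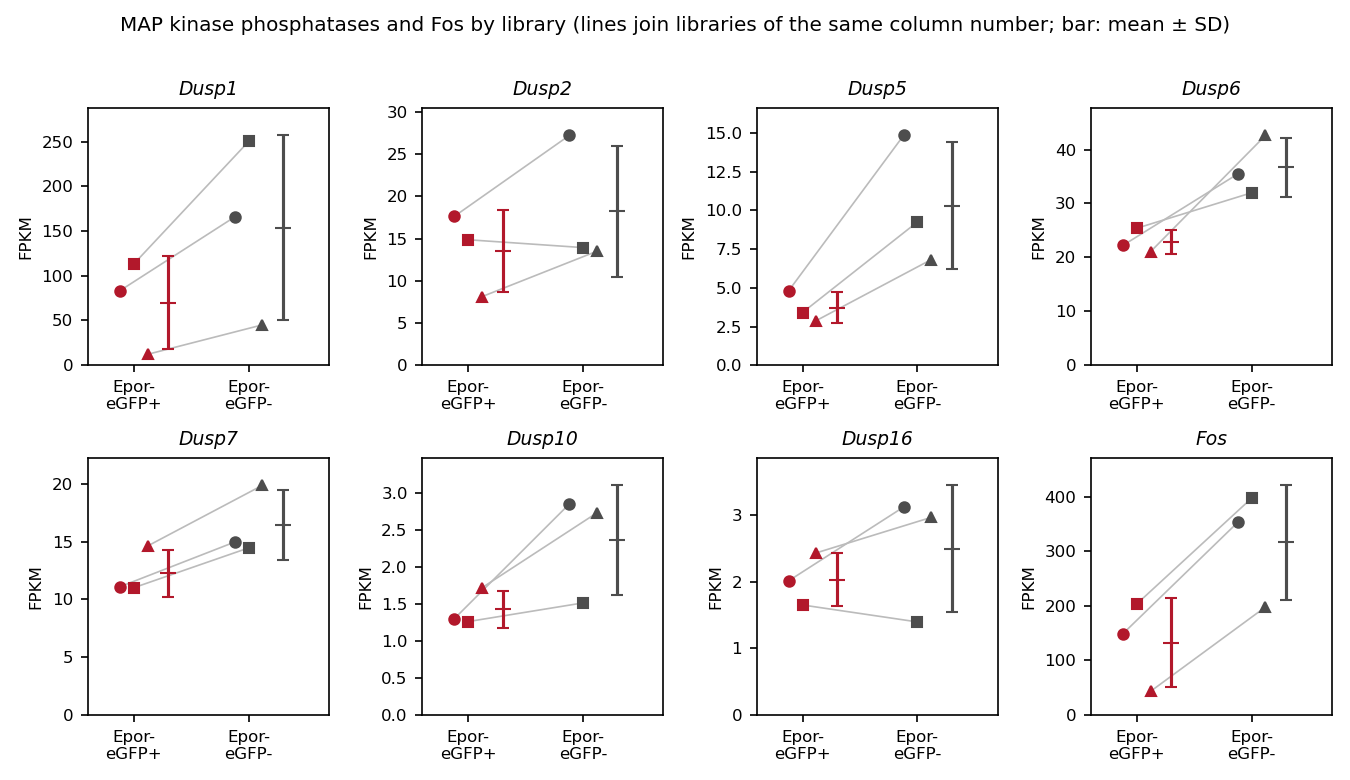
FPKM of the 7 MAP kinase phosphatases and of Fos in each library, Epor-eGFP+ left and Epor-eGFP- right, with grey lines between libraries of the same column number and the mean and SD beside the points. Dusp1 and Fos share their order of libraries in both groups, with library 2 (triangles) lowest.

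The other dual-specificity phosphatases split evenly: 3 fell, 3 rose and 1 had no call, where 26.3% of all genes fell and 22.7% rose. Dusp22 (JKAP), which acts on the JNK branch and on kinases of T cell signalling, had 9.84, 10.1 and 12.7 FPKM in Epor-eGFP+ libraries 0, 1 and 2, against 23.0, 20.01 and 31.7 FPKM in Epor-eGFP- libraries 0, 1 and 2. The groups were well apart (log2 difference −1.11, SE 0.18, adjusted p = 0.00286). Dusp3 (VHR), a small phosphatase of ERK and JNK, had 7.62, 7.36 and 11.98 FPKM in Epor-eGFP+ cells, against 14.5, 12.6 and 21.7 FPKM in Epor-eGFP- cells. Its highest Epor-eGFP+ value was close to its lowest Epor-eGFP- value (log2 difference −0.79, SE 0.24, adjusted p = 0.0304). That call was lost on leaving out any of 4 libraries, Epor-eGFP+ libraries 0 (adjusted p = 0.0992) and 1 (0.0829) and Epor-eGFP- libraries 0 (0.0647) and 2 (0.0741), and 12.9% of its exon bases face an antisense gene. Dusp11 (PIR1), which removes phosphates from RNA ends and not from MAP kinases, had 18.4, 20.7 and 16.9 FPKM in Epor-eGFP+ cells, against 29.6, 26.7 and 28.6 FPKM in Epor-eGFP- cells (log2 difference −0.58, SE 0.091, adjusted p = 0.00277).

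Dusp23, a phosphatase of little-known substrate, had 7.54, 5.44 and 8.41 FPKM in Epor-eGFP+ libraries 0, 1 and 2, against 4.14, 4.82 and 4.13 FPKM in Epor-eGFP- libraries 0, 1 and 2. All Epor-eGFP+ libraries were higher (log2 difference 0.59, SE 0.15, adjusted p = 0.0173). Dusp19, reported to regulate the JNK branch, averaged 2.497 ± 0.0637 FPKM in Epor-eGFP+ cells and 1.66 ± 0.0765 FPKM in Epor-eGFP- cells (log2 difference 0.39, SE 0.088, adjusted p = 0.0104), and Dusp12, which binds zinc, averaged 6.13 ± 0.0114 FPKM in Epor-eGFP+ cells and 4.999 ± 0.329 FPKM in Epor-eGFP- cells (log2 difference 0.25, SE 0.078, adjusted p = 0.0339). None of these calls held in every alternative. Dusp23 lost its call without library 0 of Epor-eGFP+ (adjusted p = 0.0641) or of Epor-eGFP- (0.0608), without Epor-eGFP- library 2 (0.0529) and without both libraries numbered 2 (0.0792). Dusp19 lost it under quantile normalization (0.0603). Dusp12 lost it under quantile normalization (0.103), without Epor-eGFP+ library 0 (0.104), 1 (0.071) or 2 (0.0652), without Epor-eGFP- library 0 (0.116) or 1 (0.0828), and without both libraries numbered 2 (0.0503). An annotated gene on the opposite strand covers 34.5% of the exon bases of Dusp12. Dusp28 averaged 4.64 ± 0.627 FPKM in Epor-eGFP+ cells and 4.60 ± 0.786 FPKM in Epor-eGFP- cells (adjusted p = 0.947).

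Pairs of related genes that work at the same step were also compared by share. Shares are the percentage of the summed FPKM of a pair held by its first gene, and are given without a test. Of its sum with Map2k2, Map2k1 held 44.6%, 46.2% and 43.0% in Epor-eGFP+ libraries 0, 1 and 2, against 55.5%, 55.2% and 56.7% in Epor-eGFP- libraries 0, 1 and 2, so MEK1 was the larger partner in every Epor-eGFP- library and the smaller in every Epor-eGFP+ library. Of its sum with Mapk13, Mapk14 held 90.2% to 92.0% in Epor-eGFP+ libraries and 82.9% to 88.8% in Epor-eGFP- libraries. Of its sum with Map2k6, Map2k3 held 89.3% to 91.1% in Epor-eGFP+ libraries and 87.1% to 87.8% in Epor-eGFP- libraries. Together with Mapkapk2 in its sum with Mapkapk3 (64.7% to 67.1% in Epor-eGFP+ libraries and 67.3% to 70.4% in Epor-eGFP- libraries), these are the 4 of 8 pairs whose shares did not overlap between the groups. The levels of 60.4% of all single genes tested did not overlap either, and shares were not computed for pairs of other genes. The shares overlapped for Map2k4 with Map2k7 (43.6% to 49.0% in Epor-eGFP+ libraries and 46.3% to 48.4% in Epor-eGFP- libraries), Mapk8 with Mapk9 (16.5% to 24.1% in Epor-eGFP+ libraries and 22.6% to 23.4% in Epor-eGFP- libraries), Dusp6 with Dusp7 (59.0% to 69.8% in Epor-eGFP+ libraries and 68.2% to 70.3% in Epor-eGFP- libraries) and Dusp1 with Dusp2 (60.0% to 88.4% in Epor-eGFP+ libraries and 77.0% to 94.7% in Epor-eGFP- libraries).

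**Figure D4:**
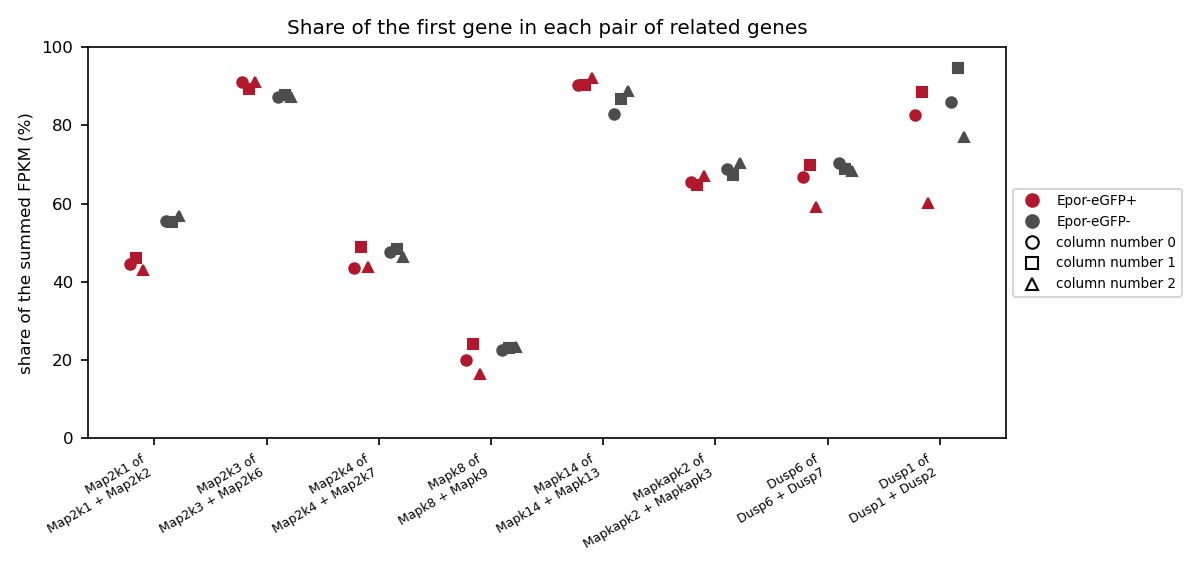
Share of the summed FPKM of each of 8 gene pairs held by the first gene, in percent, for each Epor-eGFP+ library (red, left) and Epor-eGFP- library (grey, right), with the column number as the marker shape. The share of Map2k1 lies below 50% in every Epor-eGFP+ library and above it in every Epor-eGFP- library.

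Other genes of the pathway, whose symbols do not follow the pattern, were listed by role. Of 104 such genes tested, 46 fell, 10 rose and 48 had no call, with a median log2 difference of −0.20, where 26.3% of all genes fell and 22.7% rose. Over the alternatives 34 to 51 fell and 8 to 14 rose, the fewest falling after rescaling to a common total (34, with 13 that rose) and the most with the replicate block (51, with 14 that rose). Of all 10964 genes tested, 2082 fell and 3053 rose after that rescaling, and 30.4% fell and 28% rose with the block. Among genes listed for Ras, the GTPase upstream of Raf, and its relatives and adaptors, 4 of 18 fell, 2 rose and 12 had no call (median log2 difference −0.070). The list also holds genes with Ras in their symbol, such as Rasgef1b, whose action on this GTPase was not tested. Rasgrp4, an activator of Ras in myeloid cells, averaged 8.30 ± 1.08 FPKM in Epor-eGFP+ cells and 36.9 ± 4.82 FPKM in Epor-eGFP- cells (log2 difference −2.02, SE 0.12, adjusted p = 0.000265), while Mras averaged 7.85 ± 5.32 FPKM in Epor-eGFP+ cells and 0.651 ± 0.135 FPKM in Epor-eGFP- cells (log2 difference 2.25, SE 0.40, adjusted p = 0.00447) and Rasgef1b 8.73 ± 2.44 FPKM in Epor-eGFP+ cells and 2.14 ± 0.518 FPKM in Epor-eGFP- cells (log2 difference 1.62, SE 0.20, adjusted p = 0.00125). Mras was highest in Epor-eGFP+ library 2 at 13.7 FPKM, against 6.55 and 3.30 FPKM in libraries 0 and 1. Of the genes that inactivate Ras or restrain ERK, 2 of 10 fell, 2 rose and 6 had no call (median log2 difference 0.11). Rasa3, a GTPase-activating protein, averaged 49.2 ± 0.218 FPKM in Epor-eGFP+ cells and 112 ± 17.2 FPKM in Epor-eGFP- cells (log2 difference −1.16, SE 0.11, adjusted p = 0.000646). Pebp1, which binds and inhibits Raf, averaged 161 ± 13.01 FPKM in Epor-eGFP+ cells and 80.4 ± 11.2 FPKM in Epor-eGFP- cells (log2 difference 1.001, SE 0.11, adjusted p = 0.000978), and Spred1, another inhibitor of the step from Ras to Raf, 9.20 ± 1.19 FPKM in Epor-eGFP+ cells and 5.11 ± 0.371 FPKM in Epor-eGFP- cells (log2 difference 0.73, SE 0.11, adjusted p = 0.00206).

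In the tier of Raf, whose kinases phosphorylate MEK1 and MEK2, 6 of 8 fell, 1 rose and 1 had no call (median log2 difference −0.35). Beside the counts of each list in this paragraph, 26.3% of all genes tested fell and 22.7% rose. Braf averaged 5.87 ± 0.164 FPKM in Epor-eGFP+ cells and 9.30 ± 0.377 FPKM in Epor-eGFP- cells (log2 difference −0.59, SE 0.072, adjusted p = 0.00123) and the scaffold Ksr1 6.15 ± 0.172 FPKM in Epor-eGFP+ cells and 9.37 ± 0.239 FPKM in Epor-eGFP- cells (log2 difference −0.54, SE 0.069, adjusted p = 0.00142). Araf, chosen after its values were seen as the gene of the tier that rose, averaged 26.7 ± 2.13 FPKM in Epor-eGFP+ cells and 22.6 ± 0.376 FPKM in Epor-eGFP- cells (log2 difference 0.23, SE 0.077, adjusted p = 0.0418). Among Ste20 kinases with other symbols, 6 of 11 fell, 2 rose and 3 had no call (median log2 difference −0.39). Stk10 fell by 1.27, Tnik, a close relative of Map4k4, by 0.96 and Stk24 by 0.68 on the log2 scale. Of the adaptors of the stress branches, 6 of 12 fell, 0 rose and 6 had no call (median log2 difference −0.32). Gadd45a (log2 difference −1.06, SE 0.22, adjusted p = 0.00793), Tab2, the partner of TAK1 (log2 difference −0.75, SE 0.090, adjusted p = 0.00113), and Rac2, a GTPase of blood cells (log2 difference −0.63, SE 0.075, adjusted p = 0.00111), fell most.

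Of the scaffolds and anchors, 6 of 11 fell, 1 rose and 4 had no call (median log2 difference −0.34). For this list and those that follow, the shares over all genes tested were again 26.3% that fell and 22.7% that rose. Pea15a, which holds ERK in the cytoplasm, averaged 55.0 ± 28.3 FPKM in Epor-eGFP+ cells and 14.4 ± 2.57 FPKM in Epor-eGFP- cells (log2 difference 1.76, SE 0.33, adjusted p = 0.00548) and was highest in Epor-eGFP+ library 2, as Mras was. The island macrophage markers summed to 4215, 2379.8 and 8896 FPKM in Epor-eGFP+ libraries 0, 1 and 2. Their part in the values of Pea15a and Mras was not tested. Flna, which encodes filamin A, averaged 221 ± 18.9 FPKM in Epor-eGFP+ cells and 441 ± 10.2 FPKM in Epor-eGFP- cells (log2 difference −0.996, SE 0.085, adjusted p = 0.000474), and Iqgap1 fell by 0.77 on the log2 scale. Among the kinases downstream of MAP kinases, 6 of 8 fell, 0 rose and 2 had no call (median log2 difference −0.35). Rps6ka1, the ERK target RSK1, averaged 149 ± 6.28 FPKM in Epor-eGFP+ cells and 221 ± 14.1 FPKM in Epor-eGFP- cells (log2 difference −0.57, SE 0.079, adjusted p = 0.00182), while Mknk1 (log2 difference −0.44, SE 0.079, adjusted p = 0.00456) and Rps6ka4 (log2 difference −0.40, SE 0.13, adjusted p = 0.0397) fell less. Of the transcription factors that MAP kinases phosphorylate, 8 of 17 fell, 1 rose and 8 had no call (median log2 difference −0.36). Mef2a, a target of p38 and ERK5, averaged 16.2 ± 1.13 FPKM in Epor-eGFP+ cells and 35.3 ± 5.40 FPKM in Epor-eGFP- cells (log2 difference −1.07, SE 0.12, adjusted p = 0.00088), and Elk3 fell by 0.69 on the log2 scale. Myc averaged 41.6 ± 6.71 FPKM in Epor-eGFP+ cells and 20.9 ± 6.01 FPKM in Epor-eGFP- cells (log2 difference 0.99, SE 0.22, adjusted p = 0.0105). Among other phosphatases that act on MAP kinases, 2 of 9 fell, 1 rose and 6 had no call (median log2 difference −0.064), with Ppm1d (log2 difference −0.40, SE 0.082, adjusted p = 0.00722) and Ppp2r1a (log2 difference −0.21, SE 0.062, adjusted p = 0.0306) lower and Ppp2r1b, like Ppp2r1a a scaffold subunit of protein phosphatase PP2A, higher (log2 difference 0.52, SE 0.072, adjusted p = 0.00183).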

How the data were processed

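The deposited table holds FPKM values for 11489 genes in 6 libraries, made by the authors; per the submitters' processing notes, the tools were Cufflinks 2.2.1, TopHat2 2.1.0, Trimmomatic 0.35 and bcl2fastq 2.19.1.403 and the build mouse mm10, with no role or order stated. The labels' protocol names total RNA and the TruSeq RNA kit. No source used here gives the annotation, the strand setting, the filters or any scaling between libraries. FPKM holds no read counts, so with the depth unknown, counting intervals cannot be given. Columns are numbered 0 to 2 within each group and the labels' samples 1 to 3, so a column's group is known but not its sample.

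The 10964 genes averaging 1 FPKM or more were fitted in limma 3.58.1 (R 4.3.3) as log2(FPKM + 1), on group alone, with a mean-variance trend and Benjamini-Hochberg adjustment over all of them. All 58 members passed this filter. Deviations from the group mean correlated between same-numbered libraries at 0.25, 0.38 and 0.35, against −0.39 to 0.065 between other pairs. All 3 are over 0.1, so the numbers were taken to pair the libraries, although no label says so, and a fit with the number as a replicate block was run beside the first. The alternatives were 15 further fits. Members, lists and comparisons were chosen with earlier results of these data known, and the fit without both libraries numbered 2 was added after seeing the data. Values in every library are given for the 4 called members of each tier with the largest differences, the member with the highest mean, and several fixed genes; of each pathway list, up to 3 called genes are named. Other members are given by mean ± SD, except that Dusp7, which passed with the block, is given by library, and 1 member and 1 pathway gene, although counted, are not reported here. Promoters and positions are from RefSeq (GRCm38.p6) and exon overlaps from GENCODE M21.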

Additional observations from a re-analysis of the deposited data

How the results depend on the processing

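Over 15 alternative fits the members lower in Epor-eGFP+ cells numbered 26 to 33 and outnumbered those higher in each. Over all genes those lower also outnumbered those higher, except after rescaling to a common total (2082 lower, 3053 higher) or a common upper quartile (2403 lower, 2863 higher). Of the 30 members that fell, 25 kept direction and call in each alternative that tested them and none turned (of these, Map3k6 and Mapk4 were not tested under the filter of 5 FPKM); of the 3 that rose, none turned and none kept its call throughout. The count of members higher was 1 under quantile normalization, 1 without both libraries numbered 2, and 1 to 4 with a single library left out; that of all genes higher was 1611 to 2428 with a single library left out. The fit with the replicate block added calls for Dusp1, Dusp7, Dusp10 and Map4k3 (33 members lower and 4 higher) and changed no other member's call. Members without a call near 0 changed sign: on rescaling to a common total, Map2k3 (0.034), Map3k10 (0.026), Map3k4 (0.059), Mapk1ip1l (0.012), Mapk6 (0.030), Mapk8 (0.032) and Mapkbp1 (0.054); to a common upper quartile, Map3k4 (0.024), Mapk8 (0.0022) and Mapkbp1 (0.028); under quantile normalization, Dusp28 (−0.074) and Map2k3 (0.0035); without both libraries numbered 2, Map2k2 (−0.0011) and Mapk8 (0.048). With a single library left out, the log2 differences of those that changed sign ran as follows: Dusp28 −0.049 to 0.12, Map2k2 −0.020 to 0.053, Map3k4 −0.072 to 0.0031, Mapk8 −0.11 to 0.024, Mapkbp1 −0.13 to 0.093. The cause of these changes was not tested. With an unknown depth, the precision of members near 1 FPKM, such as Mapk4 and Mapk11, cannot be given.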
